A study of Mus musculus with 8 samples.

Results

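The Hox genes are the homeobox transcription factor genes that lie side by side in 4 clusters, HoxA, HoxB, HoxC and HoxD. They were found by name on a mouse expression array, and 38 of the 35019 gene names on the array are described here: 10 of HoxA, 10 of HoxB, 9 of HoxC and 9 of HoxD. The arrays are 8 in number, 2 for each of 4 groups, all from C57BL/6 mice, with no transgene or deletion named in the labels. Primary c-kit+/CD45- cells, called CD45-negative cells below, were sorted from cultures of left atrial appendage of mice 8 to 12 weeks old after strong digestion of the explants (0.25% trypsin). Primary c-kit+/CD45+ cells, called CD45-positive cells, were sorted from such cultures after weak digestion (0.05% trypsin). Both digestions held 0.1% collagenase D, and sort gate and trypsin strength change together between these groups. Passage-8 cells are the progeny of c-kit+/CD45+ cells at their 8th passage. The control was a biopsy of the left ventricular wall of mice 12 weeks old, and its RNA was isolated with another reagent than that of the cells. The labels do not say whether the 2 samples of a group came from separate animals or cultures, so a p-value here speaks of the spread of the arrays at hand, and that spread may be technical.

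HOX proteins bind DNA through the homeodomain, mostly together with PBX and MEIS proteins, and tell cells along the body axis where they are. Within a cluster the genes are numbered in the order in which they lie, low numbers being used earliest and most anteriorly in the embryo and high numbers latest and most posteriorly; genes of the same number in different clusters are paralogues. Adult cells of mesodermal origin, fibroblasts among them, keep a part of the Hox pattern of the place they came from, and several Hox genes of the middle of the clusters also act in blood progenitors.

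Signal is given on a log2 scale on which 0 is the 75th percentile of the array, so that 1 unit is a doubling. Probes differ in brightness, and levels are compared between arrays for 1 gene and not between genes. Between 51.5% and 69.9% of the spots were well above background on an array, most on passage-8 replicate 2, and no spot was saturated. The root mean square SD between the 2 arrays of a group was 0.573 in CD45-negative cells, 0.395 in ventricle, 0.236 at passage 8 and 0.198 in CD45-positive cells, so the CD45-negative means are the least certain. The groups also differed in markers of other cells. The level of 10 macrophage markers, as their mean signal relative to the 75th percentile, reached 78.5 and 76.8 among the CD45-positive, 6.01 and 9.80 among the CD45-negative, 3.47 and 3.51 at passage 8 and 9.62 and 9.25 in ventricle. Ptprc, which encodes CD45 itself, was at -5.52 and -3.34 in CD45-negative cells, 2.04 and 1.93 in the CD45-positive ones, -5.57 and -5.18 at passage 8 and -2.33 and -2.89 in ventricle. Itgam alone among these markers was higher in CD45-negative (5.83 and 6.06 on the log2 scale) than in CD45-positive cells (4.31 and 4.29) and makes up much of the CD45-negative mean. The other 9 were lower there and differed between the replicates, Cd68 being at -0.84 and 2.99 and Adgre1 at -3.47 and 1.43. The same mean over 9 fibroblast markers came to 164 and 174 for CD45-negative, 71.3 and 68.2 for CD45-positive and 118 and 117 for passage-8 cells, with 31.2 and 47.8 in ventricle. It weighs the brightest genes most. By the test described below, 2 of the 9 were higher and 3 lower at passage 8 than in CD45-positive cells. Thy1 was at -0.87 and -0.69 at passage 8 against 4.12 and 4.26, and Lum at 5.45 and 5.54 against 2.79 and 2.54. For 8 mesothelial markers it was 4.70 and 4.17 at passage 8 and between 0.272 and 1.02 on every other array. For 9 heart muscle markers it was 350 and 338 in ventricle and at most 0.691 on any array of cells. This mean hides that the 2 ventricle arrays differed in some of these markers. On the log2 scale Sln was at -5.12 and 6.94 there, Myl7 at -2.55 and 5.21 and Nppa at 5.95 and 8.78, against 9.72 and 9.38 for Myh6. The part of these cell types in the Hox results was not tested, and in RNA from many cells a smaller number of cells of a type and less RNA per cell cannot be told apart.

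Promoters are shown for the 4 genes with the largest fitted difference between passage-8 and CD45-positive cells (Hoxa7, Hoxd4, Hoxd8 and Hoxa5, the last 3 of them below background in CD45-positive cells, so that their order is not exact) and for some of their paralogues, Hoxc4, which was above background on a single array, and Hoxb8, so that a gene with strong signal can be read beside a paralogue. They are RefSeq sequences of the build GRCm38.p6, the 250 bases before the start of transcription, 5′ to 3′ on the strand of the gene, at chr6:52204588-52204837 (Hoxa5, minus strand), chr6:52218574-52218823 (Hoxa7, minus), chr11:96281655-96281904 (Hoxb8, plus), chr15:103034145-103034394 (Hoxc4, plus), chr2:74721728-74721977 (Hoxd4, plus) and chr2:74704365-74704614 (Hoxd8, plus). Capitals mark TGATNNAT, the motif of PBX and HOX proteins bound together, searched on both strands.
Hoxa5: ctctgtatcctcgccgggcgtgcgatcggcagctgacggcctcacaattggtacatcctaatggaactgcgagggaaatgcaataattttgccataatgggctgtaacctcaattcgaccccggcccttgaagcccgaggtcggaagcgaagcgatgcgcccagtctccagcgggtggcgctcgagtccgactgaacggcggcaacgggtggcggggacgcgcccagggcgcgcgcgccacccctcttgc
Hoxa7: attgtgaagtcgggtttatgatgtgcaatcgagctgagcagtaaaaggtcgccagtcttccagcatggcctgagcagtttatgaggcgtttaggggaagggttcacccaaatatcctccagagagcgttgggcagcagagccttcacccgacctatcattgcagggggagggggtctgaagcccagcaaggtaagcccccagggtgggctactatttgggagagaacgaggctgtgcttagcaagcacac
Hoxb8: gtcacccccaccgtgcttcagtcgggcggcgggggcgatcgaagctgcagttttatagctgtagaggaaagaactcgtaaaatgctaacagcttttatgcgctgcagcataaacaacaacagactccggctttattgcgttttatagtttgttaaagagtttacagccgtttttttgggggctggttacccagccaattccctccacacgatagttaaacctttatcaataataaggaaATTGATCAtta
Hoxc4: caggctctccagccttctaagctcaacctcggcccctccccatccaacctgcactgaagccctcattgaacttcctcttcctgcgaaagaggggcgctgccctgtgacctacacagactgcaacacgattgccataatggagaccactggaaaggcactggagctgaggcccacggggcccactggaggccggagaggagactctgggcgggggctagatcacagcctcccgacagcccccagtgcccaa
Hoxd4: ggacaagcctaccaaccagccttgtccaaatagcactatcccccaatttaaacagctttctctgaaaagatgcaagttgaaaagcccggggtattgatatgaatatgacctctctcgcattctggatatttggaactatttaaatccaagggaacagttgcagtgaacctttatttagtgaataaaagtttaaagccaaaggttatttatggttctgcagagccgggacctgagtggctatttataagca
Hoxd8: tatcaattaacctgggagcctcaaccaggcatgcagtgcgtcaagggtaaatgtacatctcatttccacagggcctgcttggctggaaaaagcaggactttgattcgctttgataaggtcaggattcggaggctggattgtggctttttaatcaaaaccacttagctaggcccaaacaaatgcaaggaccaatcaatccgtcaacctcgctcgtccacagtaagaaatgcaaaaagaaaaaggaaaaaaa
Among these 6 only the Hoxb8 promoter held the motif in this window. The promoter of Hoxb4, a paralogue of Hoxd4 that was above background on all 8 arrays, was at hand but is not shown, and it held no match. Promoters of 22 of the 38 genes were at hand, 24 in all, and 4 of them held it, against 7.68% of 32851 promoters. The 24 had a median of 12.5 CpG dinucleotides in the 250 bases, against 6 over all promoters. For the 11 promoters of genes that were higher at passage 8 than in CD45-positive cells the median was 12 CpG, and for 4 of genes not above background on any array it was 11.5. These medians come from few promoters and were not tested. A match of letters is a description of the sequence and not a binding site.

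Counted by detection above background, Hox signal was widest in passage-8 cells, where it covered a stretch of HoxA, HoxB and HoxD. Of the 38 genes, 19 were well above background on both passage-8 arrays. These were Hoxa2, Hoxa3, Hoxa4, Hoxa5, Hoxa6, Hoxa7 and Hoxa9 of HoxA, Hoxb2 to Hoxb8 of HoxB, and Hoxd3, Hoxd4, Hoxd8, Hoxd9 and Hoxd10 of HoxD. No HoxC gene was among them. Of the 16 genes with paralogue numbers 9 to 13, 3 were above background on both passage-8 arrays (Hoxa9, Hoxd9 and Hoxd10), against 11 of the 15 genes numbered 4 to 8. Over all gene names 64.5% were above background on both passage-8 arrays, and over the 38 Hox genes 50%. The other groups showed fewer: both arrays were above background for 4 genes in CD45-negative cells (Hoxa3, Hoxb2, Hoxb3 and Hoxb4), 7 in CD45-positive cells (Hoxa7, Hoxa9, Hoxb2, Hoxb3, Hoxb4, Hoxb6 and Hoxb7) and 9 in ventricle (Hoxa3, Hoxa6, Hoxa7, Hoxa9, Hoxb2, Hoxb4, Hoxb6, Hoxd4 and Hoxd8). Over all gene names the shares were 54.6%, 60.9% and 61.9% in these groups. Each gene named for these groups belongs to the 19 of passage 8. The dimmest signal still well above background differed by array. It was -4.58 and -3.94 in CD45-negative cells, -5.76 and -4.94 in CD45-positive cells, -5.69 and -5.42 at passage 8 and -5.11 and -4.81 in ventricle. The same level can thus count in 1 group only. Hoxa9 did not count at -4.61 and -4.41 in CD45-negative cells but did at -4.65 on passage-8 replicate 1. Hoxb2, a gene of hindbrain segments and their motor neurons, and Hoxb4, known for its role in the growth of blood stem cells, were above background on all 8 arrays.

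**Figure D1:**
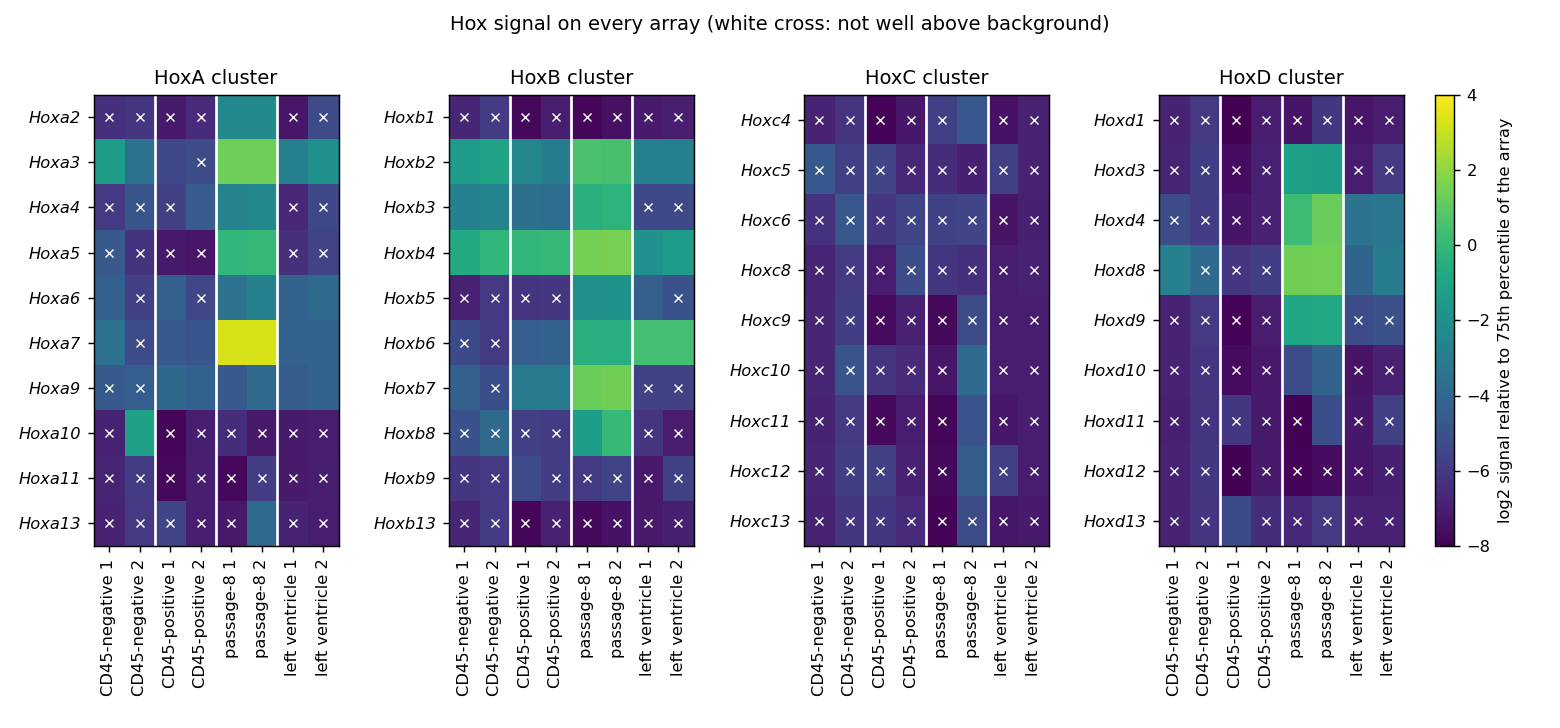
The log2 signal of 38 Hox genes on 8 arrays, by cluster, with the colour giving the signal relative to the 75th percentile of the array and a white cross where the probe was not well above background. Both passage-8 columns are free of crosses for 7 HoxA, 7 HoxB and 5 HoxD genes and for no HoxC gene; colours are to be compared along a row.

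Passage-8 cells were compared with the CD45-positive cell group they derive from, which also differs from them in the macrophage and mesothelial markers given above. In passage-8 cells 17 of the 38 genes were higher and 0 were lower, with an adjusted p under 0.05 and a log2 difference of at least 1 in limma's moderated test, which is what is meant below by passing. That is 44.7% of all 38 Hox genes and 89.5% of the 19 that were tested, while 12.6% of the 23572 genes tested were higher and 10.9% lower. By cluster 5 of 10 HoxA, 7 of 10 HoxB, 0 of 9 HoxC and 5 of 9 HoxD genes were higher. Testing asked for signal above background on each array of 1 group or the other. By that rule 19 of the Hox genes were tested, all of them above background on both passage-8 arrays. On both CD45-positive arrays 7 of them were so. The rest entered the test through their passage-8 signal alone, so the count of 0 lower says little. At an unadjusted p under 0.05, 18 were higher and 0 lower. Where both groups were above background on both arrays, the changes that passed ran from 2.93-fold (Hoxb4) to 254-fold (Hoxa7).

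In HoxA the change centred on Hoxa3, Hoxa5 and Hoxa7. Hoxa7, a gene of the trunk skeleton, was at -4.65 and -4.81 in CD45-positive cells and at 3.25 and 3.27 at passage 8. The difference was 7.99 (SE 0.535, adjusted p = 0.000701), or 254-fold, and every passage-8 value lay above every value of the other groups, which were -3.49 and -5.20 in CD45-negative cells and -4.23 and -4.24 in ventricle. Its probe lies at 52165626 to 52165685 on the minus strand of chromosome 6 in the array's annotation, which names no build. Hoxa5, needed for the lung and the neck skeleton, was at -7.11 and -7.25 in CD45-positive cells, below background, and at -0.07 and 0.01 at passage 8. Where the lower group is below background only a lower bound on the fold is given, taken against the dimmest signal still well above background, and for Hoxa5 it was at least 39.9-fold (adjusted p = 0.00101). A log2 difference printed for such a gene is the value of the fit, set against signal below background, and not a measured fold. CD45-negative cells read -4.66 and -6.26 for it and ventricle -6.32 and -5.57, all below background. Hoxa3, a gene of thymus and parathyroid formation, was at -5.38 and -5.27 in CD45-positive cells, above background on 1 of the 2 arrays, and at 1.37 and 1.36 at passage 8, a difference of 6.69 (SE 0.725, adjusted p = 0.00247). It was at -1.30 and -3.54 in CD45-negative cells and at -2.82 and -1.96 in ventricle, between those groups.

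The remaining HoxA genes moved less or did not pass. Hoxa2, which patterns the second branchial arch, was below background except at passage 8, where it was at -2.38 and -2.26. It was at least 8.15-fold higher there than in CD45-positive cells (adjusted p = 0.00565), with -7.13 and -6.52 in those, -6.36 and -6.11 in CD45-negative cells and -7.28 and -5.28 in ventricle. Hoxa4, a gene of the neck vertebrae, was at -5.72 and -4.55 in CD45-positive cells, above background on the second of these arrays, and at -2.65 and -2.47 at passage 8, a difference of 2.57 (SE 0.623, adjusted p = 0.0300). It was below background at -6.01 and -4.87 in CD45-negative cells and at -6.60 and -5.39 in ventricle. Hoxa6 and Hoxa9 were above background on both passage-8 arrays but did not pass. Hoxa6 was at -4.32 and -5.43 in CD45-positive cells and at -3.41 and -2.78 at passage 8, and differed by 1.78 (95% interval 0.31 to 3.25, adjusted p = 0.0772) and Hoxa9, a gene of blood progenitors, by -0.14 (95% interval -0.94 to 0.67, adjusted p = 0.790). Hoxa9 lay between -4.65 and -3.85 on all 8 arrays. Its probe lies 8.54 kb from that of Hoxa7, the gene with the largest fitted difference.

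In HoxB all 7 genes from Hoxb2 to Hoxb8 were higher at passage 8. Hoxb7, a gene of the trunk, was at -3.00 and -3.06 in CD45-positive cells and at 1.33 and 1.41 at passage 8, a difference of 4.40 (SE 0.298, adjusted p = 0.000714). Hoxb6 was at -4.43 and -4.27 in CD45-positive cells and at -0.40 and -0.48 at passage 8, a difference of 3.91 (SE 0.271, adjusted p = 0.000771). These 2 neighbours were both above background in CD45-positive cells already. Hoxb8, known for holding myeloid progenitors in an immature state when forced on, was below background at -5.71 and -5.87 in CD45-positive cells. At passage 8 it was at -1.33 and 0.03, at least 25.6-fold higher (adjusted p = 0.00314). The fitted difference, against signal below background, was 5.83 without passage-8 replicate 1 and 4.46 without replicate 2. Hoxb5 rose from below background, -6.18 and -6.12, to -1.97 and -1.88, at least 10.71-fold (adjusted p = 0.00137). Hoxb3 rose from -3.57 and -3.67 to -0.36 and -0.22, a difference of 3.33 (SE 0.196, adjusted p = 0.000529). Hoxb2 rose from -2.51 and -2.95 to 0.55 and 0.53, a difference of 3.27 (SE 0.249, adjusted p = 0.000985). Hoxb4 had the smallest change within HoxB, from -0.07 and -0.01 to 1.49 and 1.54, a difference of 1.55 (SE 0.30, adjusted p = 0.0148). Hoxb1, Hoxb9 and Hoxb13 at the ends of the cluster were below background on both passage-8 arrays.

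In HoxD the 5 genes Hoxd3, Hoxd4, Hoxd8, Hoxd9 and Hoxd10 were all below background on both CD45-positive arrays and all higher at passage 8. They entered the test through their passage-8 signal alone, so their direction was set by that rule. Hoxd4, a gene of the neck vertebrae whose enhancer is known for answering to retinoic acid, was at -7.32 and -6.81 in CD45-positive cells and at 0.22 and 1.26 at passage 8, at least 68.1-fold higher (adjusted p = 0.000521). Its probe lies at 74566866 to 74566925 on the plus strand of chromosome 2 in the array's annotation. Hoxd8 was at -6.11 and -5.75 and then at 1.41 and 1.43, at least 109-fold higher (adjusted p = 0.000744). Hoxd9, which with Hoxd10 acts in limb patterning, went from -7.89 and -7.07 to -0.96 and -0.87, at least 21.6-fold (adjusted p = 0.000529). Hoxd3, a gene of the first neck vertebrae, went from -7.60 and -6.91 to -1.18 and -1.34, at least 17.0-fold (adjusted p = 0.00123). Hoxd10 went from -7.65 and -7.18 to -5.23 and -4.18, at least 1.56-fold (adjusted p = 0.00919). In the log2 value table deposited by the authors, Hoxd10 did not pass in this comparison. Hoxd1 at one end and Hoxd12 and Hoxd13 at the other were below background on both passage-8 arrays.

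Each of the 17 kept its direction in each alternative in which it was testable, while 3 lost their call without 1 array. For genes that entered the test through their passage-8 signal alone, a kept direction says little. Hoxa4 did not pass whichever 1 of the 4 arrays compared was left out (adjusted p 0.0608 to 0.150; difference 1.99 without CD45-positive replicate 1 and 3.16 without replicate 2), nor did Hoxb4 (adjusted p 0.0570 to 0.0902), and Hoxd10 did not without CD45-positive replicate 1 (adjusted p = 0.0652, difference 2.47) or with another background correction (0.48, adjusted p = 0.358).

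**Figure D2:**
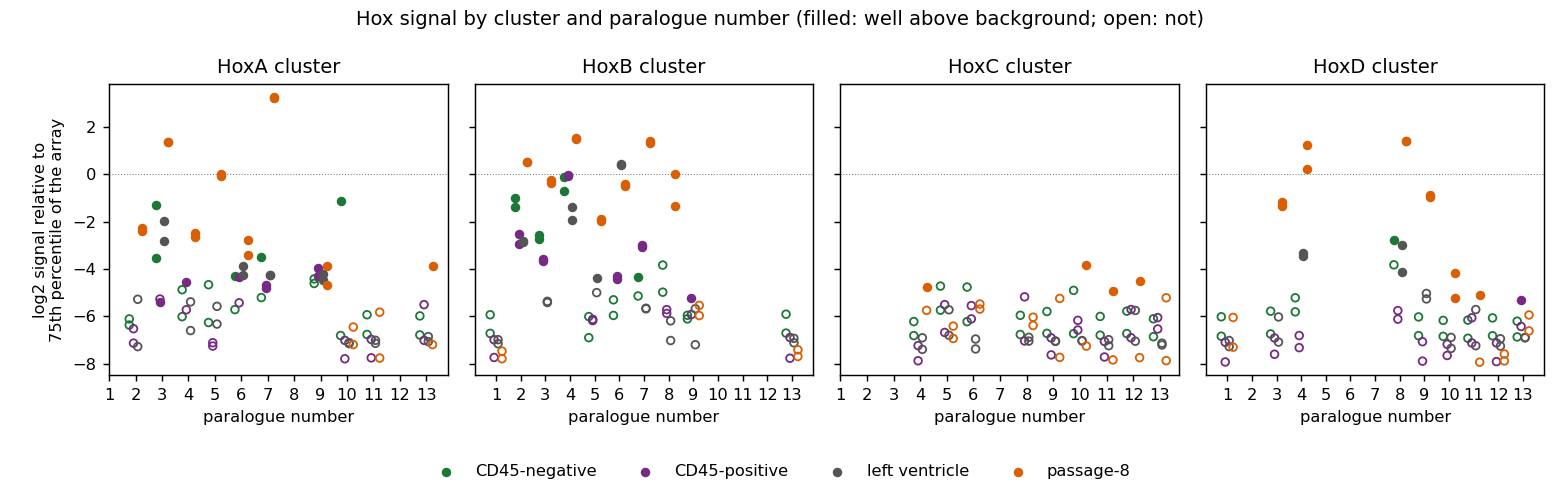
The log2 signal on each array against the paralogue number within each cluster, 1 point for each of the 8 arrays in 4 colours, filled where the probe was well above background. Passage-8 points are filled in pairs from Hoxa2 to Hoxa9, Hoxb2 to Hoxb8 and Hoxd3 to Hoxd10, and no pair is filled in HoxC.

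Passage-8 cells against primary CD45-negative cells compare the cultured progeny with the other sorted population. Here too 17 of the 38 genes were higher and 0 lower. The 17 are 89.5% of the 19 Hox genes tested, against 6.97% higher and 6.97% lower of 22899 genes tested. The 19 Hox genes tested were those above background on both passage-8 arrays, and 4 of them were so on both CD45-negative arrays. The rest entered the test through their passage-8 signal alone, so the count of 0 lower says little. The comparison shares the passage-8 arrays with the one before. Hoxa7 differed by 7.60 (SE 0.535, adjusted p = 0.00149), Hoxb7 by 6.11 (SE 0.298, adjusted p = 0.000799) and Hoxd8 by 4.71 (SE 0.504, adjusted p = 0.00459). Hoxb7 was at -4.34 and -5.14 in CD45-negative cells, the first above background, and Hoxd8 at -2.77 and -3.82, again the first. The lower bound was 32-fold for Hoxd4 (-5.21 and -5.81 in CD45-negative cells), 18.7-fold for Hoxa5 and 14.1-fold for Hoxb6 (-5.30 and -5.96). It was 11.8-fold for Hoxb8 (-4.98 and -3.83), 10.1-fold for Hoxd9 (-6.81 and -6.02), 7.99-fold for Hoxd3 (-6.74 and -5.78) and 5.03-fold for Hoxb5 (-6.90 and -6.01). For Hoxa2 it was 3.83-fold and for Hoxa4 3.25-fold. Hoxd10 (-6.84 and -6.17 in CD45-negative cells) passed at an adjusted p of 0.0495, but its bound was under 1, so no fold is given.

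A further 4 genes were above background on both CD45-negative arrays. Hoxa3 was 13.8-fold higher at passage 8 (adjusted p = 0.0239), Hoxb3 (-2.72 and -2.57 in CD45-negative cells) 5.10-fold (adjusted p = 0.00218), Hoxb4 (-0.69 and -0.10) 3.74-fold (adjusted p = 0.0138) and Hoxb2 (-1.39 and -1.01) 3.33-fold (adjusted p = 0.0105). Hoxa6 (1.90, 95% interval 0.43 to 3.37, adjusted p = 0.0875) and Hoxa9 (0.26, 95% interval -0.54 to 1.06, adjusted p = 0.630) did not pass. This comparison rests more on single arrays than the one before: 11 genes passed without passage-8 replicate 1, 10 without replicate 2, and 4 (Hoxa2, Hoxb6, Hoxb7 and Hoxd9) with the 4 arrays of these groups alone in the fit. Without passage-8 replicate 1 or 2 the adjusted p was 0.0652 and 0.0743 for Hoxa2, 0.0869 and 0.103 for Hoxa3, 0.102 and 0.144 for Hoxa4, 0.0694 and 0.0731 for Hoxb2 and 0.0722 and 0.0849 for Hoxb4. Hoxb8 did not pass without passage-8 replicate 2 (3.07, adjusted p = 0.0610). Hoxa3 and Hoxa4 also did not pass without CD45-positive replicate 1 or 2 (adjusted p = 0.0601 and 0.0543, in either case), and Hoxa4 without CD45-negative replicate 1 (2.31, adjusted p = 0.0783). Hoxd10 did not pass whichever 1 of the 8 arrays was left out (adjusted p 0.0572 to 0.221) and turned to -0.60 with another background correction, under which Hoxa2 (0.59), Hoxa4 (0.26) and Hoxb5 (1.01) also did not pass. The CD45-negative arrays differed in Hoxa3, Hoxa5 and Hoxa7: without replicate 1 and without replicate 2 the fitted differences were 4.91 and 2.66, 6.23 and 4.63 (against signal below background), and 8.46 and 6.75.

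**Figure D3:**
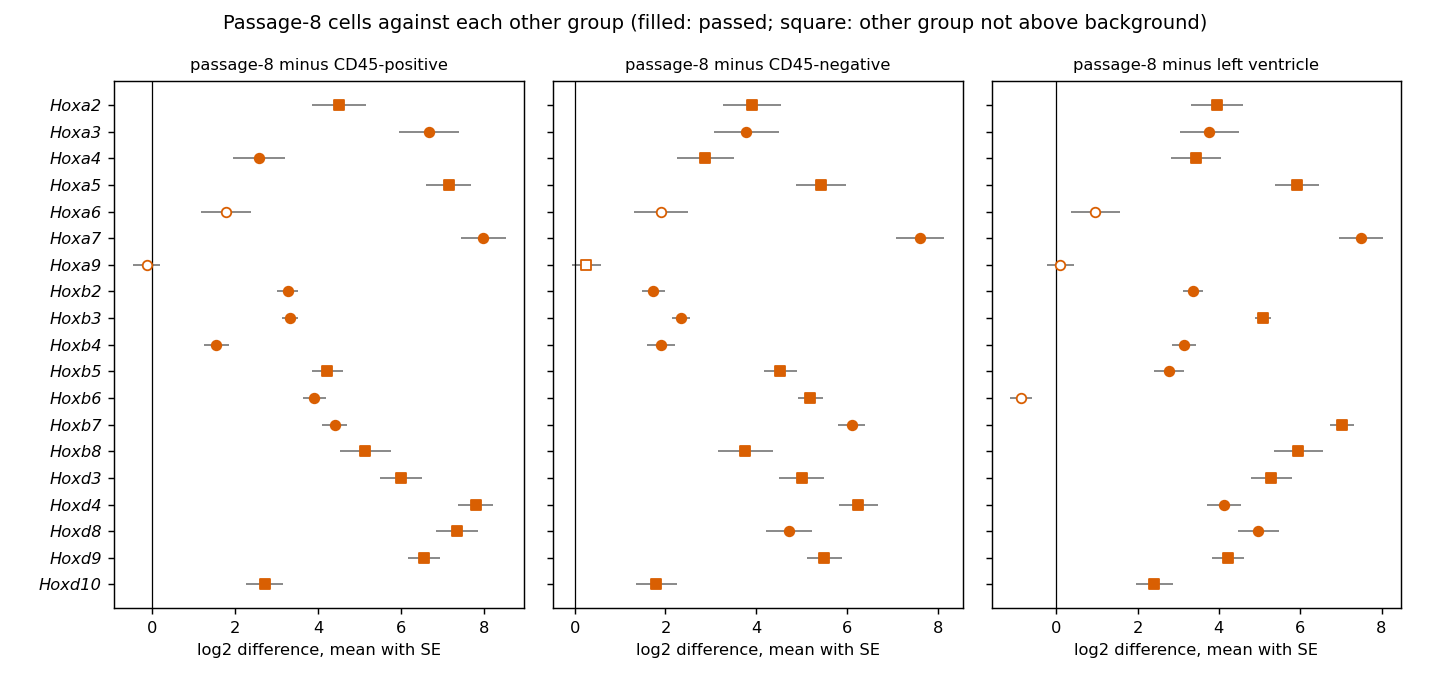
Log2 differences of passage-8 cells from each other group with their standard errors, for the 19 Hox genes tested, filled where the gene passed and square where both arrays of the other group were not above background. All points but those of Hoxa6, Hoxa9 and, against ventricle, Hoxb6 are filled, and every filled point lies right of 0.

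The primary CD45-negative and CD45-positive cells, which differ in sort gate and digestion, differed in few Hox genes. Of the 38 genes 2 were higher in CD45-negative cells and 2 lower, among 8 tested, against 11.2% higher and 10.5% lower of 21636 genes tested. These are 5.26% of the 38 Hox genes, or 25% of the 8 tested, on each side, and nothing is read from so few. Hoxa3 was 7.47-fold higher in CD45-negative cells (difference 2.90, SE 0.725, adjusted p = 0.0346), and its CD45-negative values, -1.30 and -3.54, lay 2.24 apart. Hoxb2 was 2.89-fold higher (SE 0.249, adjusted p = 0.0102). Hoxb6 (-1.28, SE 0.271, adjusted p = 0.0220) and Hoxb7 (-1.71, SE 0.298, adjusted p = 0.0124) were lower in CD45-negative cells. Hoxb6 was below background on both CD45-negative arrays and Hoxb7 on 1, no bound above 1 could be given for Hoxb6, and with another background correction these differences turned to 0.57 and 0.19. Hoxb3 differed by 0.98 (adjusted p = 0.0186), just under the required size. Hoxb4 (-0.35, 95% interval -1.09 to 0.39), Hoxa7 (0.38, -0.93 to 1.70) and Hoxa9 (-0.40, -1.20 to 0.41) did not pass. No call in this comparison stood when CD45-positive replicate 1 or replicate 2 was left out. The adjusted p was then 0.151 and 0.158 for Hoxa3, 0.0504 and 0.0911 for Hoxb2, 0.109 and 0.150 for Hoxb6 and 0.0867 and 0.0911 for Hoxb7. Hoxa3 also did not pass without either passage-8 (adjusted p = 0.0540) or either ventricle array (adjusted p = 0.0577), its difference was 1.78 without CD45-negative replicate 1 and 4.02 without replicate 2, and Hoxb6 did not pass without CD45-negative replicate 2 (-0.95). With the replicate number as a block Hoxa3 did not pass (adjusted p = 0.0524).

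Against the left ventricle, the heart's own tissue, passage-8 cells were higher in 16 of the 38 genes and lower in 0. The 16 are 84.2% of the 19 Hox genes tested, where 20.3% of 24122 genes tested were higher and 18.8% lower. Of the 19 Hox genes tested, 9 were above background on both ventricle arrays, and the rest entered the test through their passage-8 signal alone. Hoxa7 differed by 7.50 (SE 0.535, adjusted p = 0.000304), Hoxd8 by 4.96 (SE 0.504, adjusted p = 0.000867), Hoxd4 by 4.12 (SE 0.424, adjusted p = 0.000907) and Hoxb4 by 3.15 (SE 0.30, adjusted p = 0.000710). Hoxb7, at -5.66 and -5.68 in ventricle, was at least 80.5-fold higher at passage 8 (adjusted p = 9.45e-05), and Hoxa5 at least 30.5-fold (adjusted p = 0.000647). Hoxb5 was at -4.38 and -4.99 in ventricle, above background on the first, and 6.79-fold higher at passage 8. Hoxb8 (-6.19 and -7.02 in ventricle), Hoxd3 (-7.09 and -6.02), Hoxd9 (-5.26 and -5.03) and Hoxd10 (-7.35 and -6.89) were below background in ventricle and passed too. Hoxb3 is among the 16 by its brighter probe, with a difference of 5.10, while its other probe gave -0.38 and did not pass. At an unadjusted p under 0.05, 16 were higher and 1, Hoxb6, lower. Hoxa3 did not pass without ventricle replicate 1 (3.33, adjusted p = 0.0539). Without ventricle replicate 1 and without replicate 2 the fitted difference, against signal below background, was 2.95 and 4.95 for Hoxa2 and 2.83 and 4.04 for Hoxa4. Without passage-8 replicate 1 and without replicate 2 it was 6.64 and 5.27 for Hoxb8, also below background in ventricle. With another background correction Hoxa4 (0.95) and Hoxd10 (0.13) did not pass.

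Hoxb6 was the exception in ventricle among the probes that stand for a gene. It was at 0.44 and 0.41 there, above every value of the cells, the passage-8 values of -0.40 and -0.48 included. Its difference from passage-8 cells, -0.87 (95% interval -1.53 to -0.20, adjusted p = 0.0434), was under the required size. CD45-negative cells were at least 25.7-fold lower than ventricle (adjusted p = 0.000109) and CD45-positive cells 27.4-fold lower (adjusted p = 0.000184). Hoxb7, the next gene, had the same order among the cells but was below background in ventricle, with CD45-positive cells at least 3.81-fold higher (adjusted p = 0.00128). With another background correction this Hoxb7 difference was 0.62 and did not pass. The Hoxb6 probe lies at 96162563 to 96162622 and the Hoxb7 probe at 96151211 to 96151270 on the plus strand of chromosome 11 in the array's annotation, 11.4 kb apart.

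The primary cells differed from ventricle in both directions. CD45-negative cells were higher in 3 of the 38 genes and lower in 2, against 20.3% higher and 19.2% lower of 22394 genes tested. Only 10 of the Hox genes were tested here, so these are 30% and 20% of those tested, and nothing is read from so few. The higher genes were Hoxb2 (3.09-fold, ventricle -2.84 and -2.82, adjusted p = 0.00351), Hoxb3 (at least 4.99-fold by its brightest probe, adjusted p = 0.000316) and Hoxb4 (2.37-fold, ventricle -1.92 and -1.36, adjusted p = 0.0179). The lower genes were Hoxb6 and Hoxd4 (ventricle -3.45 and -3.31, at least 1.84-fold, adjusted p = 0.00906). Hoxd4 turned to 0.11 with another background correction and did not pass without ventricle replicate 2 (adjusted p = 0.0522), and Hoxb4 did not without CD45-negative replicate 2 (0.95) or ventricle replicate 1 (0.97, adjusted p = 0.0761). CD45-positive cells were higher than ventricle in 3 genes and lower in 4, against 18.3% higher and 19.8% lower of 23213 genes tested. With 11 Hox genes tested these are 27.3% and 36.4% of those tested, again few genes. Hoxb3, Hoxb4 (3.03-fold, adjusted p = 0.00785) and Hoxb7 were higher. Hoxa3 (7.61-fold, adjusted p = 0.0209), Hoxb6, Hoxd4 (at least 3.92-fold, adjusted p = 0.00136) and Hoxd8 (ventricle -4.13 and -2.96, at least 3.49-fold, adjusted p = 0.012) were lower. Hoxa3 did not pass whichever 1 of the 4 arrays compared was left out (adjusted p 0.0546 to 0.112), Hoxd8 did not without CD45-positive replicate 1, replicate 2 or ventricle replicate 2 (adjusted p = 0.0702, 0.0520 and 0.0539), and Hoxb4 did not without CD45-positive replicate 2 (adjusted p = 0.0563), so that 4 of the 7 passed without that array.

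The 2 probes of Hoxb3 disagreed in ventricle. The probe used above, the brighter on average, lies at 96209002 to 96209061 on chromosome 11 and was below background in ventricle at -5.41 and -5.36. The other, at 96207114 to 96207173, was at -0.98 and -0.51 in ventricle and at -1.16 and -1.09 at passage 8. Its ventricle values, like those of Hoxb6, lay above every value of the cells. On this second probe the difference between passage-8 cells and ventricle was -0.38 (SE 0.341, adjusted p = 0.406) and did not pass, where the first probe gave 5.10. In the fit over all probes CD45-negative cells differed from ventricle by -3.91 on the second probe and 2.75 on the first, and CD45-positive cells by -5.04 and 1.77. The direction of Hoxb3 between primary cells and ventricle thus depends on the probe, while passage-8 cells were higher than CD45-positive cells on both (4.66 and 3.33) and than CD45-negative cells on both (3.53 and 2.35). Of the other genes with 2 probes, Hoxa9 did not pass in any comparison on the probe tested, and both Hoxa13 probes were above background on passage-8 replicate 2 alone. Of the 2 Hoxd11 probes, 1 was above background on that array and the other on none.

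**Figure D4:**
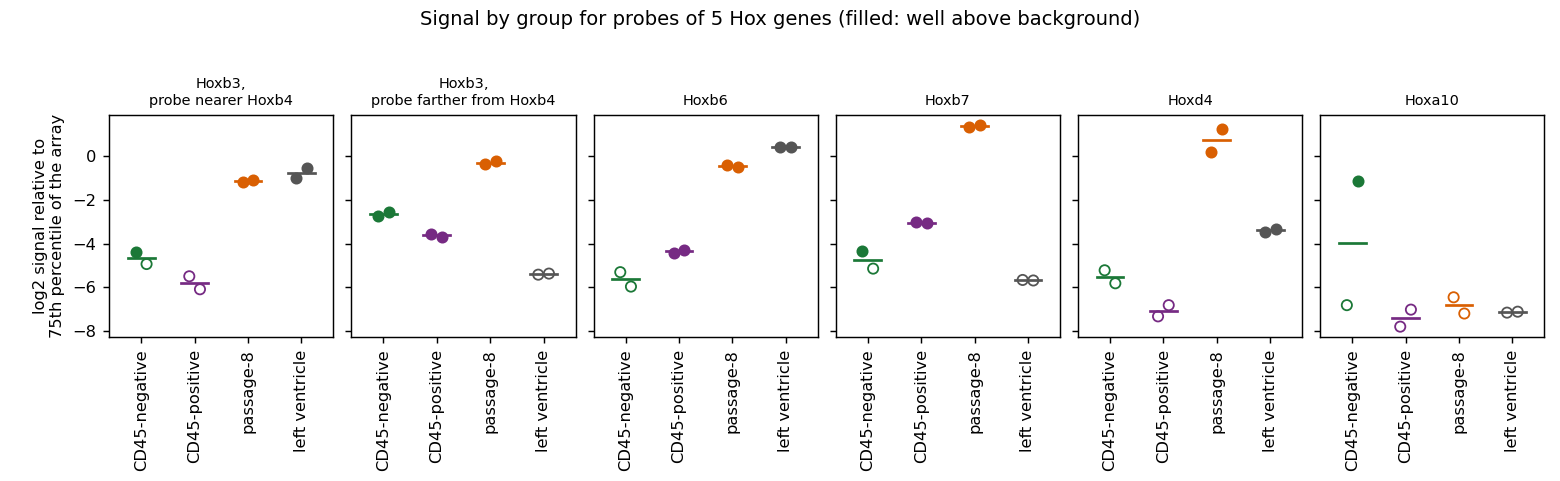
The log2 signal of both Hoxb3 probes and of Hoxb6, Hoxb7, Hoxd4 and Hoxa10 by group, with 1 point per array (filled where well above background) and a line at the mean of the 2 arrays. The Hoxb3 probes part in ventricle, Hoxb6 is highest in ventricle, and Hoxa10 is above background on 1 CD45-negative array at -1.12.

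Of the 19 genes that were not above background on both arrays of any group, 10 were above it on no array: Hoxa11, Hoxb1, Hoxb13, Hoxc5, Hoxc6, Hoxc8, Hoxc9, Hoxc13, Hoxd1 and Hoxd12. The other 9 were seen on a single array. Hoxa10 was at -1.12 on CD45-negative replicate 2 and at -6.81 on replicate 1, and below background on the remaining arrays, between -7.79 and -6.45. Hoxa10 therefore gives no group value for CD45-negative cells. Passage-8 replicate 2 alone showed Hoxa13, Hoxc4, Hoxc10, Hoxc11, Hoxc12 and Hoxd11, between -5.10 and -3.82, where replicate 1 had values between -7.94 and -5.74. That array had the most spots above background of all, and 8.01% of all gene names were above background on it without being so on both arrays of any group, against 15.8% of the Hox genes. CD45-positive replicate 1 alone showed Hoxb9 (-5.21) and Hoxd13 (-5.32). For these genes no difference between groups was testable.

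The TALE homeodomain proteins are the partners with which HOX proteins bind DNA. Of 9 genes of this class, 6 were higher at passage 8 than in CD45-positive cells and 0 lower, with a median difference of 1.56 against 0.16 over all genes tested. Over all genes 12.6% were higher and 10.9% lower in that comparison, 11.2% and 10.5% between the primary cells (CD45-negative minus CD45-positive), and 6.97% on each side for passage-8 against CD45-negative cells, and the counts of this and the next lists stand beside these shares. With median centring 4 of the 6 passed. The 4 largest were Meis3 (5.33-fold, adjusted p = 0.00216), Meis1 (5.21-fold, adjusted p = 0.00157), Meis2 (4.49-fold, adjusted p = 0.00250) and Pbx4 (3.16-fold, adjusted p = 0.0357). Meis1 was at 3.64 and 3.31 in CD45-negative cells and at 3.46 and 3.52 at passage 8, overlapping ranges, against 1.12 and 1.09 for CD45-positive cells, and ventricle had 2.83 and 2.62. In CD45-negative against CD45-positive cells 4 of the class were higher and 0 lower: Pknox2 (8.14-fold), Meis2 (6.71-fold), Meis1 (5.16-fold) and Pbx3 (2.05-fold). Pbx3 fell under the required size with each of the 4 other scalings (0.86 to 0.98). Passage-8 against CD45-negative cells gave 2 higher, Pbx4 and Meis3 (3.74-fold), and 1 lower, Pknox2 (2.76-fold, adjusted p = 0.0499). With another background correction the Pbx4 difference from CD45-negative cells turned from 2.66 to -0.12, and that from CD45-positive cells did not pass (0.68). Pknox2 did not pass between passage-8 and CD45-negative cells with median centring (adjusted p = 0.159).

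Chromatin regulators known to act on Hox clusters were tested as 22 genes. At passage 8 against CD45-positive cells 10 were higher and 0 lower, with a median difference of 0.67. The largest were Cbx6 (5.30-fold, adjusted p = 0.00381), Phc1 (4.31-fold, adjusted p = 0.0201), Cbx2 (3.40-fold, adjusted p = 0.0111) and Ezh2 (3.13-fold, adjusted p = 0.00342), all members of Polycomb complexes, which keep Hox genes silent. The 10 also held Men1 (log2 difference 1.26), Kdm6b (1.18) and Dot1l (1.025), which are not Polycomb members. With median centring 2 of the 10 passed, Cbx6 and Ezh2. Against CD45-negative cells 0 were higher and 1, Phc2 (2.17-fold, adjusted p = 0.0346), was lower; at an unadjusted p under 0.05 limma's test had 3 higher and 1 lower. Phc2 did not pass with any of the 4 other scalings (-1.07 to -0.91). In CD45-negative against CD45-positive cells 5 were higher (Cbx6, Phc1, Men1, Cbx2 and Phc2) and 0 lower, of which only Cbx6 passed with median centring. Phc1 also did not pass with quantile normalization or in the authors' deposited table, nor Phc2 with another background correction or in that table. Among 8 homeobox genes next to the clusters or in the related ParaHox and caudal families, Cdx1 was higher at passage 8 than in CD45-positive cells (at least 1.44-fold, adjusted p = 0.0401) while Gsx1 was 4.28-fold higher in the CD45-negative than in the other primary cells (adjusted p = 0.0148). Cdx1 did not pass with another background correction (0.33) or in the authors' deposited table (0.66). Between passage-8 and CD45-negative cells limma's test passed 0 of the 3 tested, with 1 higher and 1 lower at an unadjusted p under 0.05.

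Retinoic acid is the best known inducer of the low-numbered Hox genes in embryos, and Aldh1a2 makes it. Aldh1a2 was at -3.84 and -3.61 at passage 8, 45.0-fold lower than in CD45-positive cells (1.73 and 1.80, adjusted p = 0.00417) and 307-fold lower than in CD45-negative cells (5.59 and 3.49, adjusted p = 0.00234). In ventricle it was at 0.21 and -0.80. Both passage-8 values lay below those of every other array. Of 12 genes of retinoic acid synthesis, binding and breakdown, 9 of them tested, 2 were higher (Rara, 3.08-fold, and Crabp2, 2.29-fold) and 3 lower (Aldh1a2, Cyp26b1, 11.8-fold, and Dhrs3, 5.37-fold) at passage 8 than in CD45-positive cells. Rara (adjusted p = 0.0639) and Crabp2 (adjusted p = 0.0651) did not pass with median centring. Against CD45-negative cells 1 was higher (Aldh1a1, 4.18-fold, adjusted p = 0.0829 with median centring) and 3 lower (Aldh1a2, Cyp26b1, 24.5-fold, and Rarb, 5.00-fold). In CD45-negative against CD45-positive cells 4 were higher and 0 lower, although 2 were lower with quantile normalization and at an unadjusted p under 0.05 in limma's test. The higher genes were Aldh1a2 (6.83-fold), Rarb (6.70-fold), Rarg (2.70-fold) and Rara (2.24-fold). With median centring only Rarb passed, and Rara did not pass with another background correction (0.95).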

How the data were processed

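RNA of 8 samples was hybridised to 1-colour Agilent arrays and scanned on 1 slide. Per the file headers and the submitters' processing notes, spot intensity (background-subtracted) was deposited by the authors from Agilent Feature Extraction 10.7; their deposited log2 value table was used only as an alternative. Control and outlier spots were left out, log2 intensity was set to the 75th percentile of each array, spots were averaged, and the brightest of several probes stood for a gene (27235 of 55681 probes were matched to RefSeq names). limma 3.58.1 (R 4.3.3) was fitted over all genes on all 8 arrays with 1 mean per group, p-values were adjusted by Benjamini-Hochberg over the genes tested in each of 6 comparisons, and a gene passed at an adjusted p under 0.05 and a log2 difference of at least 1. The number of arrays, 2 a group, limits the precision. Data were simulated for passage-8 against CD45-positive cells with the 18053 genes well above background on all 8 arrays. Of these, 73 of 100 changes of 2 on the log2 scale, 96 of 100 changes of 4 and 6 of 17853 unchanged genes passed. Among the Hox genes only Hoxb2 and Hoxb4 were above background on all 8 arrays. The simulated rates therefore do not apply to Hox genes near background. Members and lists were chosen with earlier results of these data known; genes passing between cell groups are given on every array, other lists by up to 4 genes a direction by size or all of a short count. A gene that fits the naming rule and a gene of another list are not reported here. Alternatives covered normalization, background ("another background correction" is normexp with an offset of 50), probes, filters, blocks, weights, thresholds and left-out arrays.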

Additional observations from a re-analysis of the deposited data

How the results depend on the processing

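All alternatives were chosen with earlier results known. The 17 genes higher at passage 8 than in CD45-positive cells and the 16 higher than in ventricle kept their direction wherever they were testable, in alternatives that give 1 value per gene. The second Hoxb3 probe on its own gave -0.38 against ventricle. Against CD45-negative cells Hoxd10 turned (-0.60). Other reversals were, with normexp, Hoxb6 (0.57) and Hoxb7 (0.19) in CD45-negative minus CD45-positive cells and Hoxd4 (0.11) in CD45-negative cells minus ventricle, and, with the mean of all probes, Hoxb3 against ventricle in CD45-negative (-0.58) and CD45-positive cells (-1.64). Asking for signal above background on all 8 arrays left only Hoxb2 and Hoxb4 testable: 1 passed between the primary cells and for CD45-positive cells against ventricle, and 2 in each of the other 4 comparisons. Between the primary cells the count of 4 became 2 with quantile normalization, median centring or the authors' deposited table, and 0 with the 4 arrays alone, with treat (a test against a log2 difference of 1) or with an adjusted p under 0.01. For passage-8 against CD45-negative cells the 17 became 4 with the 4 arrays alone, 10 with treat and 10 with an adjusted p under 0.01. For CD45-negative cells against ventricle the 5 became 2 with treat, and Hoxd4 did not pass in the authors' table. For CD45-positive cells the 7 became 4 with normexp and 4 with treat. The genes lost there with normexp were Hoxb3, Hoxb7 and Hoxd8, and in the authors' table Hoxa3 and Hoxd8 did not pass. Leaving out 1 array gave 0 to 6 between the primary cells, 14 to 18 and 10 to 17 for passage-8 against CD45-positive and CD45-negative cells, and 4 to 6, 4 to 7 and 15 to 20 against ventricle. Where a group was left with 1 array, it was assumed to vary like the others. Same-numbered arrays were not shown to be paired (correlations of -0.196 to 0.193 between groups); with the replicate number as a block 3, 17, 17, 5, 7 and 16 genes passed in the order primary cells, passage 8 against CD45-positive and CD45-negative cells, and then against ventricle for CD45-negative, CD45-positive and lastly passage-8 cells, and Hoxa3 between the primary cells was the only call to change. Detection depends on its rule: by the positive-and-significant flag 19 and 17 Hox genes were seen in CD45-negative cells (well above background, 8 and 5), 29 and 21 in CD45-positive cells (11 and 8), 29 and 35 at passage 8 (19 and 25) and 23 and 20 in ventricle (10 and 9). Scaling moved the median over all genes by at most 0.284 (CD45-positive minus ventricle, median centring). Of 226 calls in the other lists, 46 did not pass with median centring, 24 with normexp, 14 in the authors' table and 11 with quantile normalization, and 3 turned, all with normexp. Low signal limits the genes near background, most of all in CD45-negative cells.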

Other observations

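Probes for other transcripts that lie inside the clusters, between the Hox genes, were set beside them after their values were seen. Differences of transcripts below background in a group are values of the fit and not measured folds. In HoxD, AI448005, between the Hoxd4 and Hoxd3 probes, was at 1.73 and 1.66 at passage 8 and at -5.56 and -5.27 in CD45-positive cells, a difference of 7.11 in the fit over all probes (adjusted p = 0.000571). It was at -4.09 and -4.25 in CD45-negative cells and at -2.88 and -2.04 in ventricle. Hoxd3os1, named as an antisense transcript, differed by 4.69 (adjusted p = 0.00107) and was above background at passage 8 alone. In HoxA, 2700086A05Rik was at -0.75 and -0.83 at passage 8 and below background on the other 6 arrays, with a difference of 6.53 (adjusted p = 0.000664). In HoxB, Gm11536 differed by 3.42 (adjusted p = 0.00886). Gm11538, beside Hoxb13, went the other way: it was above background in CD45-positive cells alone, at -3.02 and -3.14, with a difference of -4.44 (adjusted p = 0.00103). Hoxa11os, named as the antisense partner of Hoxa11, was highest in ventricle at -2.62 and -2.89 and lay between -4.97 and -4.17 in the cells, while Hoxa11 was below background on all 8 arrays. In HoxC, 4 of the 5 HOTAIR probes were below background on all 8 arrays and the fifth did not differ between passage-8 and CD45-positive cells (-0.21, adjusted p = 0.797). In HoxB, 3 probes of a single unnamed noncoding region between Hoxb5 and Hoxb4 were higher by 3.30, 4.76 and 5.06. Inside the clusters lay 6 such probes in HoxA, 22 in HoxB, 6 in HoxC and 5 in HoxD. Of those tested, 3 of 4 in HoxA, 4 of 12 in HoxB, 1 of 2 in HoxC and 2 of 3 in HoxD were higher at passage 8 than in CD45-positive cells. In HoxB 2 were lower. Probes and not transcripts are counted, so a region with several probes counts more than 1 time. Over all 33965 probes tested 12.6% were higher and 9.79% lower.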
